A study of Mus musculus with 12 samples.

Results

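The acyl-CoA dehydrogenase family was followed through bulk RNA-seq libraries of mouse neural progenitor cells (NPCs) with and without p53. The members were the rows of the count table whose symbol is Acadvl, Acadl, Acadm, Acads, Acadsb, Acad8, Acad9, Acad10 or Acad11, which are 9 of the 24108 listed genes. All 9 passed the filter on low counts, among 13745 genes tested. The rule uses the symbols and no measured value.

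Acyl-CoA dehydrogenases are flavoenzymes that take electrons from an acyl-CoA, which opens each round of fatty acid β-oxidation or a step of amino acid breakdown. They pass these electrons through the electron transfer flavoprotein to the respiratory chain, and each enzyme prefers acyl chains of a certain length or branching. Fatty acid oxidation in the adult brain is best known from astrocytes and from quiescent neural stem cells, which share glial traits.

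The libraries came in 4 groups of 3: NPCs without p53 (p53-/-) in co-culture with brain microvascular endothelial cells (bmvECs), the same genotype alone, and NPCs with p53 (p53+/+) likewise in co-culture and alone. All NPCs were labelled C57BL/6, were isolated from the subventricular zone (SVZ) of mice at postnatal days 9 to 12 and were expanded in medium with growth factors and serum. Co-cultured NPCs spent 48 h on a monolayer of purchased primary bmvECs, a setting used to model the vascular niche, and were taken off it by selective trypsinization. NPCs alone were kept on laminin for 48 h. In the study's methods p53 was removed from cultured p53LoxP/LoxP NPCs by an adenovirus that expresses Cre from a CMV promoter, with a virus that carries only the promoter as its control, while the labels call the other genotype wild type. Each group holds 1 library from each of the experiments 17_9, 25_9 and 1_10, and values are given below in that order of experiments. In bulk libraries fewer cells of a type and less RNA per cell cannot be told apart.

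The promoter windows of 4 members are shown because these genes carry many of the differences described below. They run from 250 bases before to 50 bases after the gene's start in the RefSeq annotation of GRCm38.p6, on the gene's own strand. Acadvl lies at chr11:70015379-70015678 (minus strand), Acadm at chr3:153944594-153944893 (minus strand), Acadsb at chr7:131410351-131410650 (plus strand) and Acad11 at chr9:104063474-104063773 (plus strand). The gene spans given with each member are those of GENCODE on GRCm38, whose start of Acad11 lies upstream of the RefSeq start and outside this window. Capitals mark the motif AGGTCA, the half-site of nuclear receptors such as the PPAR family, or its reverse complement.
Acadvl: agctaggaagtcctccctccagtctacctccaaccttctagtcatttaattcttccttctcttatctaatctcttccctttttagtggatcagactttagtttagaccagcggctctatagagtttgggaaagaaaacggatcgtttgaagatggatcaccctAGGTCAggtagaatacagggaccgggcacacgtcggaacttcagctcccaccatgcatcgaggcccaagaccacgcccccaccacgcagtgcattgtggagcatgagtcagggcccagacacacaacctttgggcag
Acadm: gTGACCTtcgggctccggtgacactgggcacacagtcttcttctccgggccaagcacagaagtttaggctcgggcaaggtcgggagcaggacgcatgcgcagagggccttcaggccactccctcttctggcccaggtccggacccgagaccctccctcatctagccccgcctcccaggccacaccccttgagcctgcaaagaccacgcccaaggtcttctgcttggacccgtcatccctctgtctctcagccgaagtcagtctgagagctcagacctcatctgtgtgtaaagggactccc
Acadsb: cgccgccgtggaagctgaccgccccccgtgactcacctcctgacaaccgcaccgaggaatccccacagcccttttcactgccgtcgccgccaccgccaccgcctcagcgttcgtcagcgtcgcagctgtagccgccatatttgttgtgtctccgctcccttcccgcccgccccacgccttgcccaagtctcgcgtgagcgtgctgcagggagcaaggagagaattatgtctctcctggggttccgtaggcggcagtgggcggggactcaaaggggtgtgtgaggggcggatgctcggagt
Acad11: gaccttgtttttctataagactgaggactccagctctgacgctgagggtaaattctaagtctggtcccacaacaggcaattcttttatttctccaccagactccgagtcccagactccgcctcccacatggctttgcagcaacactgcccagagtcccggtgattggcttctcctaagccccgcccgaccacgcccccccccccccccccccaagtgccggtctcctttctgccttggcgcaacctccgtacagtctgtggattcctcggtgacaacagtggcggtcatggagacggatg

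Of the 9 members, 8 matched this promoter table. AGGTCA on either strand was found in 2 of the 8, against 16.3% of all 32851 promoter windows. It began at position -87 in Acadvl, on the gene's strand, and at position -249 in Acadm, on the opposite strand. Longer motifs that contain AGGTCA were found in none of the 8, namely TNAAGGTCA, held by 1.28% of all windows, and DR1, the direct repeat of AGGTCA with any single base between its copies, held by 0.0396%. The p53 half-site, held by 8.36% of all windows, was also found in none of them. These are matches of letters within 300 bases and describe the windows only.

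The genotype and the cell type were checked first. Trp53 averaged 17.1 ± 2.99 CPM (counts scaled to a common library size) in p53-/- co-cultures and 14.6 ± 2.82 CPM in p53-/- NPCs alone, against 68.8 ± 8.84 CPM in p53+/+ co-cultures and 95.1 ± 14.2 CPM in p53+/+ NPCs alone (SD, n = 3 each). Total counts per library ranged from 16509710 to 22245224. The 8 markers of the neural stem and astroglial lineage were all present, and summed to 15132 to 18085 CPM in p53-/- co-cultures against 7746 to 8534 CPM in p53-/- NPCs alone, and to 20157 to 28512 CPM in p53+/+ co-cultures against 8939 to 10380 CPM in p53+/+ NPCs alone. Gfap weighed heavily in these sums, with means of 7019 against 292 CPM in p53-/- NPCs and 13071 against 556 CPM in p53+/+ NPCs. Nes and Fabp7 had lower means in co-culture in both genotypes, and the other markers of this list had higher means. All 12 endothelial markers examined were called higher in co-culture in both genotypes, and their summed level was 102 to 127 CPM in p53-/- co-cultures against 13.9 to 18.8 CPM in p53-/- NPCs alone, and 114 to 188 CPM in p53+/+ co-cultures against 15.1 to 17.7 CPM in p53+/+ NPCs alone. Only Tie1 in p53+/+ NPCs alone had no counts. Markers of mural cells and fibroblasts summed to 1228 CPM in the p53-/- alone library and 692 CPM in the p53+/+ alone library of experiment 17_9, and to between 84.8 and 158 CPM in the other 10 libraries.

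Acadl dominated the family. Compared per length, on the scale of CPM per kb of the longest coding transcript, its level averaged 244 over the 12 libraries, followed by Acadvl at 75.9, Acadm at 66.1, Acads at 31.7, Acad9 at 19.2, Acad8 at 15.4, Acad11 at 14.8, Acadsb at 12.1 and Acad10 at 1.86. Acadl held 50.5% ± 1.45 of the summed per-length level of the family in p53-/- co-cultures and 55.2% ± 1.47 in p53-/- NPCs alone, against 46.0% ± 1.22 in p53+/+ co-cultures and 53.1% ± 1.39 in p53+/+ NPCs alone (SD, n = 3 each). The 9 members together had 1056 ± 89.5 CPM in p53-/- co-cultures and 871 ± 50.5 CPM in p53-/- NPCs alone, against 1349 ± 106 CPM in p53+/+ co-cultures and 1035 ± 34.2 CPM in p53+/+ NPCs alone. The ends of the order by level per length were stable, with Acadl first and Acad10 last in each of the 4 groups, and no library of either reached the levels of its neighbour. Acadvl and Acadm, which followed Acadl, overlapped in their libraries in every group. The place of Acad11 varied most, since it was number 8 in p53-/- NPCs alone, where its libraries overlapped those of Acadsb, and number 5 in p53+/+ co-cultures. With the coding length in place of the transcript length, Acadm came before Acadvl in the mean over all libraries, and Acadsb, whose transcript is mostly untranslated, came before Acads, although not in p53-/- NPCs alone.

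**Figure D1:**
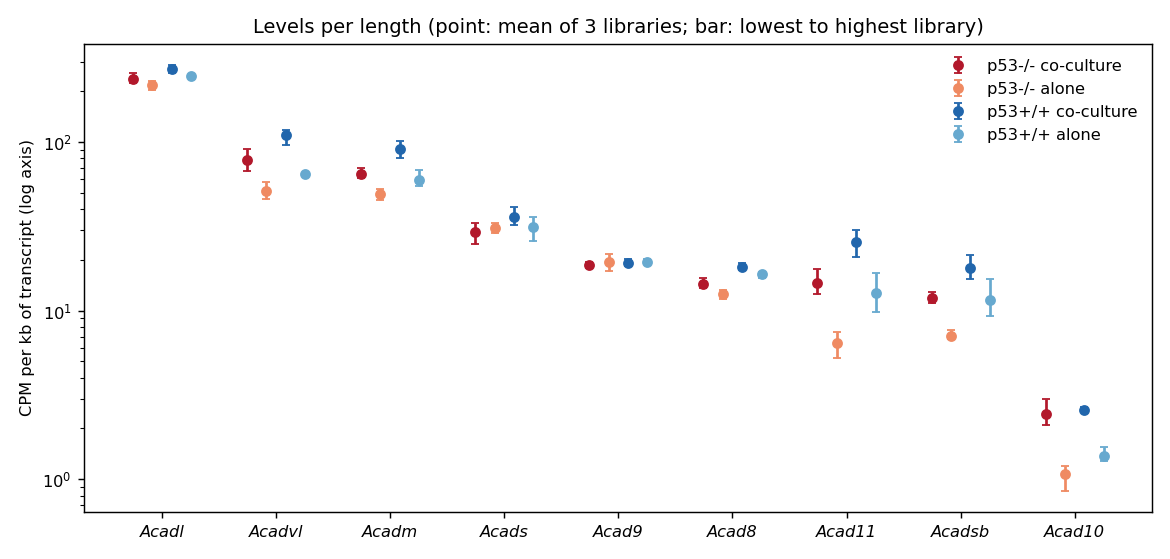
Level of each member per length, in CPM per kb of transcript on a log axis, by group. Points are means of 3 libraries and bars run from the lowest to the highest library. Acadl stands above all other members in every group and Acad10 below them.

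In co-culture, 5 of the 9 members were higher in both genotypes, and these were the same genes: Acadvl, Acadm, Acadsb, Acad10 and Acad11. In p53-/- NPCs their log2 fold changes, co-culture over alone, lay between 0.39 and 1.19, and in p53+/+ NPCs between 0.62 and 1.00. Of all genes tested, 18.8% were called higher with co-culture of p53-/- NPCs and 21.2% with that of p53+/+ NPCs. No member was called lower, against 17% of all genes in p53-/- NPCs and 18.3% in p53+/+ NPCs. Acadl, Acads, Acad8 and Acad9 did not pass the test in either genotype. The median log2 fold change of the 9 members was 0.39 in p53-/- NPCs and 0.62 in p53+/+ NPCs, against -0.01 and 0.0005 over all genes tested. The endothelial markers moved in the same direction, with a median log2 fold change of 4.35 in p53-/- NPCs and 4.60 in p53+/+ NPCs, and so did 5 of the 8 neural stem and astroglial markers in each genotype, Gfap among them, with 2 lower in p53-/- NPCs and 1 lower in p53+/+ NPCs. Of the oligodendrocyte lineage markers, 1 of 6 was higher and 2 lower in p53-/- NPCs, and 4 were higher and 2 lower in p53+/+ NPCs. Of 7 mural and fibroblast markers tested, 2 were higher and 2 lower in p53-/- NPCs, and 3 higher and 1 lower in p53+/+ NPCs. Microglia and macrophage markers summed to at most 15.3 CPM in any library, and of the 2 tested 1 was higher in p53-/- and 2 in p53+/+ NPCs. Of 5 neuroblast markers 0 were called in p53-/- NPCs, while 1 was higher and 1 lower in p53+/+ NPCs. The part of these cell types in the members' differences was not tested. Without experiment 25_9, which leaves 2 libraries a group, 2 members were called in p53-/- NPCs and 0 in p53+/+ NPCs, while 1343 and 1209 of all genes were called higher. Without either of the other experiments 4 or 5 members were called.

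Loss of p53 went with lower levels of 3 members in each culture, and none was called higher. In co-culture these were Acadvl, Acadm and Acad11, against 4.93% of all genes called lower and 3.24% called higher. In NPCs alone they were Acadsb, Acad8 and Acad11, against 4.27% called lower and 2.02% called higher. Acad11 was thus the 1 member called in both cultures. The median log2 fold change of the 9 members, p53-/- over p53+/+, was -0.34 in co-culture and -0.35 in NPCs alone, against 0.02 and 0.05 over all genes tested. With the experiment as a block, the members called lower were 5 in co-culture, where Acadsb and Acad8 joined (10.9% of all genes called lower), and 4 in NPCs alone, where Acadvl joined (9.33% of all genes). Of the neural stem and astroglial markers, 1 of 8 was lower without p53 in each culture (Gja1), of the endothelial markers 0 of 12, and of the 7 mural and fibroblast markers tested 2 were higher without p53 in NPCs alone. Of 5 neuroblast markers, 1 was higher without p53 in co-culture and 2 alone, and 1 of 6 oligodendrocyte lineage markers was lower in co-culture. Median log2 fold changes in co-culture were -0.35 for the endothelial and -0.37 for the neural stem and astroglial markers, beside -0.34 for the members. Alone they were -0.02 and -0.21, beside -0.35. For the mural and fibroblast markers tested they were 0.51 in co-culture and 0.73 alone. The neuroblast markers had 0.42 and 0.50, and the oligodendrocyte lineage markers 0.18 and 0.31. The part of these markers in the members' differences was not tested. DESeq2 without the block called 5 members lower in co-culture (6.94% of its genes) and 3 alone (6.97%).

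**Figure D2:**
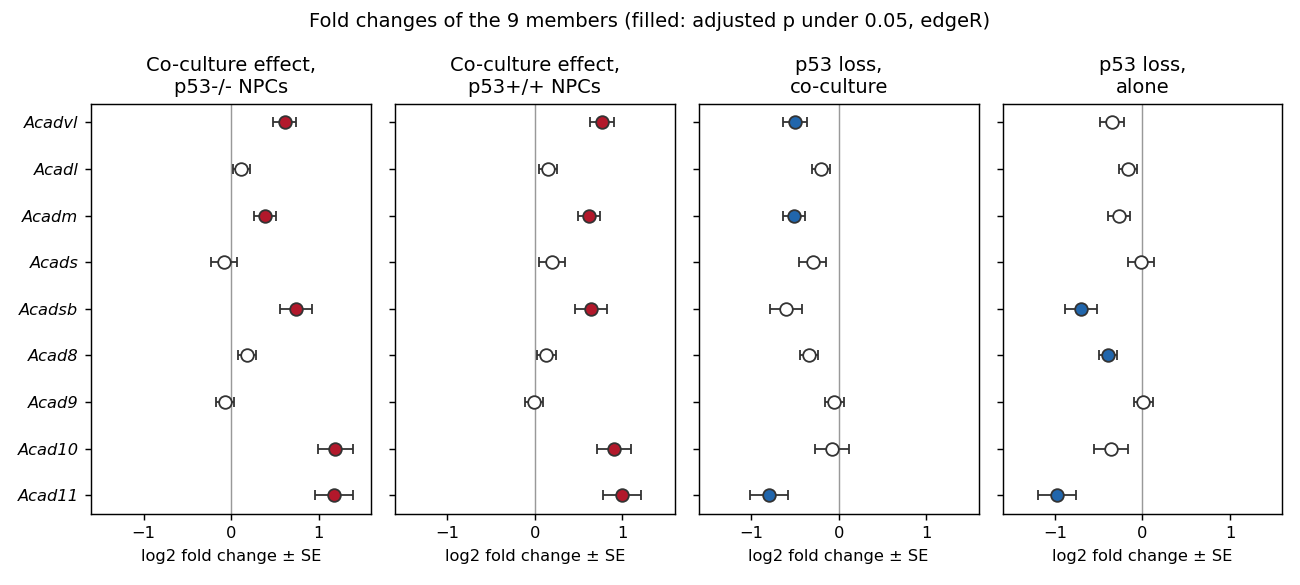
Log2 fold change ± SE of each member in the 4 pairwise comparisons (edgeR, n = 3 libraries per group), co-culture over alone in the 2 left panels and p53-/- over p53+/+ in the 2 right panels. Filled points passed an adjusted p of 0.05. The same 5 genes are filled in both co-culture panels, and Acad11 is the 1 gene filled in all 4.

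Among the long-chain enzymes, Acadvl, the very-long-chain acyl-CoA dehydrogenase of the inner mitochondrial membrane, rose in co-culture. It measured 196, 164 and 146 CPM in p53-/- co-cultures, against 126, 106 and 99.2 CPM in p53-/- NPCs alone. Every co-culture library exceeded every library of NPCs alone (log2 fold change 0.61 ± 0.14, adjusted p = 0.00421, edgeR). In p53+/+ NPCs it measured 251, 255 and 209 CPM in co-culture, against 140, 139 and 143 CPM alone. Again the groups did not overlap (0.76 ± 0.14, adjusted p = 0.000837). Between genotypes, Acadvl was lower in p53-/- co-cultures than in p53+/+ co-cultures by -0.50 ± 0.13 on the log2 scale (adjusted p = 0.0388), with no overlap. In NPCs alone the difference of -0.35 ± 0.13 did not pass (adjusted p = 0.143), although each p53-/- library lay below each p53+/+ library, and with the experiment as a block it did (-0.36 ± 0.10, adjusted p = 0.0375). The call in co-culture was lost with scaling by library size alone and when only those 2 groups were fitted.

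Acadvl lies on chromosome 11 of GRCm38 (70010183 to 70015411, minus strand). There 42.9% of its exon bases, taken over all its transcript models, overlap exons of Dvl2 on the opposite strand. Of the 100-base words of its longest transcript, 8.26% also lie in Dvl2. The libraries were stranded, but whether reads were counted by strand is not given in the sources used here. Dvl2, chosen for this check after its values were seen, was less abundant and had differences of the opposite sign in all 4 comparisons. It averaged 25.2 ± 1.94 CPM in p53-/- co-cultures against 34.1 ± 4.10 CPM in p53-/- NPCs alone, and 18.3 ± 3.01 CPM in p53+/+ co-cultures against 25.2 ± 6.39 CPM in p53+/+ NPCs alone (SD, n = 3 each). None of its differences passed the test. Its count depends on the same strand setting and shared bases, so it cannot show whether the overlap affects the count of Acadvl.

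Acadl, the long-chain acyl-CoA dehydrogenase (chromosome 1, 66830839 to 66863277, minus strand), was the most abundant member and did not pass in any comparison. Its counts were 491, 427 and 446 CPM in p53-/- co-cultures and 429, 389 and 440 CPM in p53-/- NPCs alone. Those of p53+/+ NPCs were 546, 527 and 494 CPM in co-culture and 466, 468 and 478 CPM alone. The p53+/+ libraries lay above the p53-/- libraries in both cultures without overlap, by a margin smaller than the test required (-0.20 ± 0.10 in co-culture, adjusted p = 0.237, and -0.17 ± 0.10 alone, adjusted p = 0.334).

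Acadm, the medium-chain acyl-CoA dehydrogenase (chromosome 3, 153922357 to 153944632, minus strand), rose in co-culture and was lower without p53 in co-culture. It measured 143, 125 and 126 CPM in p53-/- co-cultures, against 102, 92.9 and 108 CPM in p53-/- NPCs alone (0.39 ± 0.13, adjusted p = 0.0297). In p53+/+ NPCs it measured 208, 187 and 165 CPM in co-culture, against 139, 114 and 113 CPM alone (0.62 ± 0.13, adjusted p = 0.00201). Co-culture and alone did not overlap in either genotype. The p53-/- co-cultures lay below the p53+/+ co-cultures in all 3 experiments (-0.51 ± 0.13, adjusted p = 0.0269). In NPCs alone, where the difference in experiment 1_10 was only -0.07, it did not pass (-0.27 ± 0.13, adjusted p = 0.210). The call in p53-/- co-culture was lost without experiment 17_9 or 25_9, without either library of those experiments in the p53-/- groups, and with no filter on low counts.

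Acads, the short-chain acyl-CoA dehydrogenase (chromosome 5, 115110299 to 115119346, minus strand), did not pass in any comparison, and its groups overlapped in all of them. It measured 61.8, 54.9 and 46.4 CPM in p53-/- co-cultures and 62.1, 56.8 and 53.8 CPM in p53-/- NPCs alone. The p53+/+ NPCs had 63.2, 76.9 and 60.5 CPM in co-culture and 48.0, 66.7 and 60.3 CPM alone. Within experiments the log2 ratio of co-culture to alone was between -0.21 and -0.01 in p53-/- NPCs and between 0.00 and 0.40 in p53+/+ NPCs. The difference between these effects was -0.28 ± 0.21 and did not pass (adjusted p = 0.822).

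**Figure D3:**
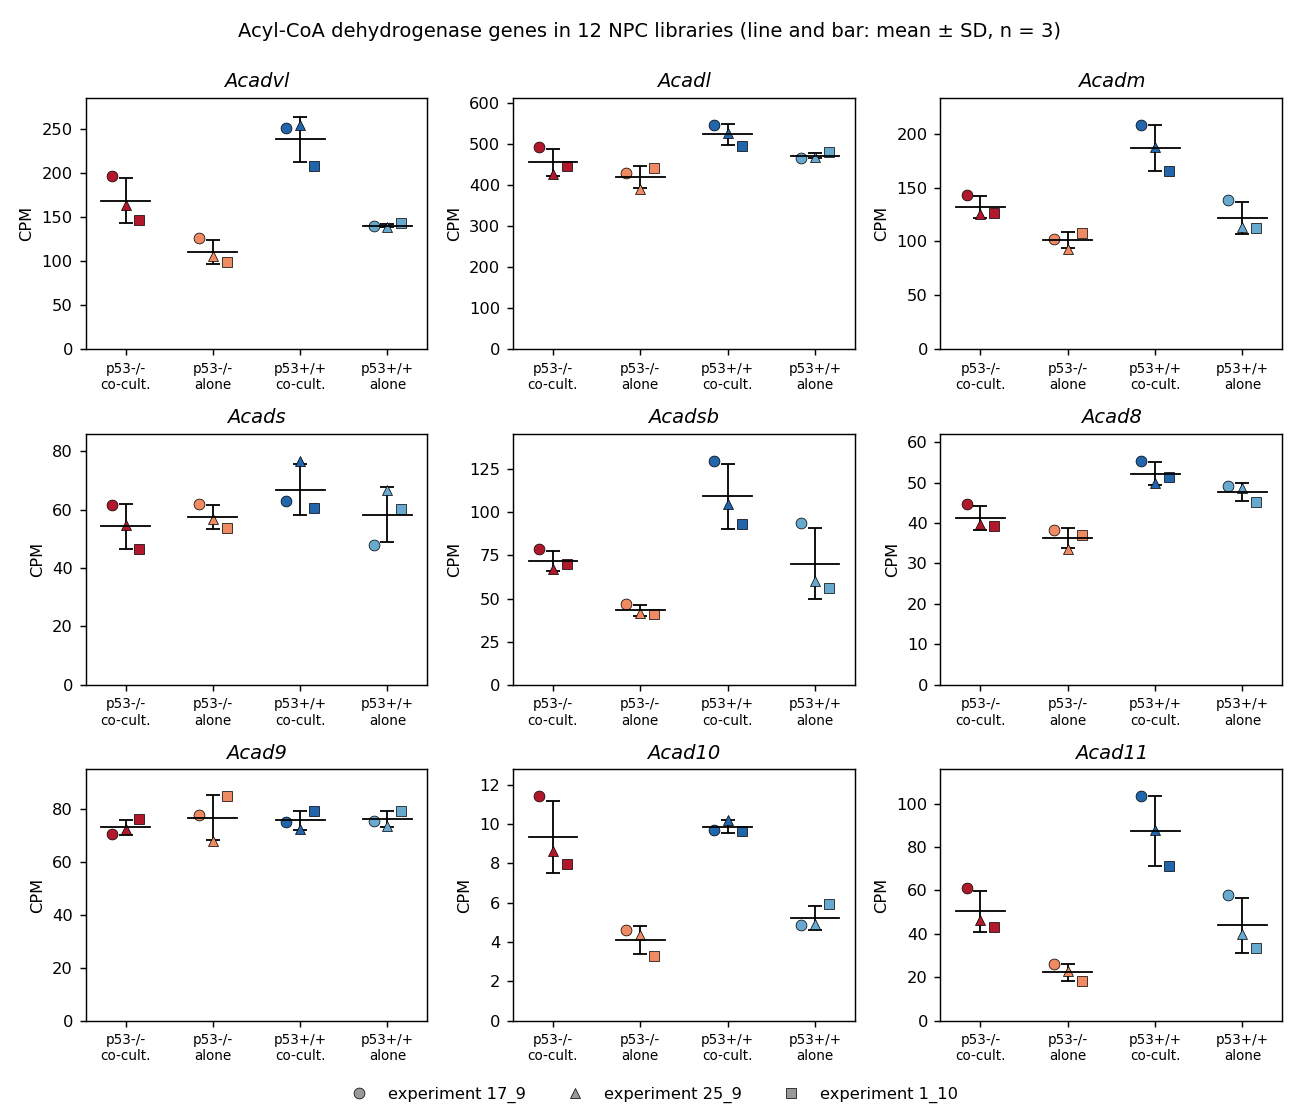
CPM of each member in each of the 12 libraries, with the mean and SD of each group of 3 and a marker for each experiment. Acadvl, Acadm, Acadsb, Acad10 and Acad11 are higher in co-culture in both genotypes, while Acad9 lies between 67.8 and 84.9 CPM in all libraries.

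Of the branched-chain enzymes, Acadsb, which acts on short branched acyl-CoAs in isoleucine breakdown (chromosome 7, 131410601 to 131448944, plus strand), showed both differences. It measured 78.5, 67.3 and 70.3 CPM in p53-/- co-cultures, against 46.9, 41.5 and 41.1 CPM in p53-/- NPCs alone. The p53-/- groups were far apart for their spread (0.74 ± 0.18, adjusted p = 0.00826). Its level in p53+/+ NPCs was 130, 105 and 93.0 CPM in co-culture, against 94.0, 60.4 and 56.4 CPM alone (0.64 ± 0.18, adjusted p = 0.0148). Here the groups touched, since the alone library of 17_9 exceeded the co-culture library of 1_10. The call was lost when the p53+/+ co-culture from 17_9 or the p53+/+ alone library from 25_9 or from 1_10 was left out, and without experiment 25_9 or 1_10 as a whole. Acadsb was lower in p53-/- NPCs alone than in p53+/+ NPCs alone (-0.70 ± 0.18, adjusted p = 0.0413). Without the p53+/+ alone library from 17_9 this difference was -0.43 (adjusted p = 0.146). In co-culture it missed the threshold (-0.60 ± 0.18, adjusted p = 0.0613) and passed with the experiment as a block (-0.59 ± 0.12, adjusted p = 0.00465), with no overlap of the genotypes in either culture.

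Acad8, the isobutyryl-CoA dehydrogenase of valine breakdown (chromosome 9, 26974135 to 26999566, minus strand), passed a test for genotype and for neither test of culture. It measured 44.7, 39.8 and 39.2 CPM in p53-/- co-cultures and 38.3, 33.6 and 37.1 CPM in p53-/- NPCs alone. The p53+/+ NPCs had 55.4, 49.9 and 51.3 CPM in co-culture and 49.1, 48.8 and 45.2 CPM alone. Every p53-/- library lay below every p53+/+ library, whatever the culture, and within each genotype the co-culture libraries lay above those alone. The difference passed in NPCs alone (-0.39 ± 0.11, adjusted p = 0.0461) and missed the threshold in co-culture (-0.34 ± 0.11, adjusted p = 0.0665), where it passed with the experiment as a block (-0.34 ± 0.09, adjusted p = 0.0202). The call in NPCs alone was lost with no filter on low counts and was kept in 2 of the 15 fits without 1 library or experiment. The co-culture effect of Acad8 was 0.18 ± 0.11 in p53-/- NPCs (adjusted p = 0.196) and 0.13 ± 0.11 in p53+/+ NPCs (adjusted p = 0.347).

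Acad9, which is needed to assemble complex I of the respiratory chain (chromosome 3, 36065979 to 36092853, plus strand), was the flattest member. It measured 70.7, 72.5 and 76.4 CPM in p53-/- co-cultures and 77.7, 67.8 and 84.9 CPM in p53-/- NPCs alone. Those of p53+/+ genotype had 75.3, 72.6 and 79.5 CPM in co-culture and 75.5, 73.8 and 79.5 CPM alone. Its group means spanned 0.064 on the log2 scale, against 0.30 for Acads, the next narrowest, while the 4 pairwise log2 fold changes lay between -0.07 and 0.01 with SEs of 0.11. The direction of such small differences changed with the scaling. Of the 100-base words of its transcript, 11.2% also lie in the overlapping gene model Gm43079.

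Acad10 and Acad11 are the least known members and take part in the breakdown of hydroxylated fatty acids. Acad10 (chromosome 5, 121621026 to 121660514, minus strand) was the rarest, with 59 to 228 counts per library. It measured 11.4, 8.64 and 7.97 CPM in p53-/- co-cultures, against 4.60, 4.37 and 3.27 CPM in p53-/- NPCs alone. With p53 present it reached 9.69, 10.2 and 9.64 CPM in co-culture, against 4.87, 4.91 and 5.95 CPM alone. It rose without overlap in both genotypes (1.19 ± 0.20, adjusted p = 0.000759 in p53-/- NPCs, and 0.91 ± 0.20, adjusted p = 0.00290 in p53+/+ NPCs). The genotypes did not differ past the test in co-culture (-0.08 ± 0.19, adjusted p = 0.832) or alone (-0.36 ± 0.20, adjusted p = 0.294). Its neighbour Acad12 shares 10.4% of the 100-base words of the Acad10 transcript, and 90.8% of 1920 aligned transcript bases are identical. How reads that fit both genes were counted or dropped is not given in the sources used here. Acad12 rose as well (1.71 ± 0.34, adjusted p = 0.00224 in p53-/- NPCs, and 1.26 ± 0.33, adjusted p = 0.00912 in p53+/+ NPCs).

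Acad11 (chromosome 9, 104063377 to 104127725, plus strand), known in mouse cells as a transcriptional target of p53, had the widest range of the family, 1.95 on the log2 scale between its lowest and highest group mean. It measured 61.1, 46.6 and 43.4 CPM in p53-/- co-cultures, against 25.9, 22.7 and 18.1 CPM in p53-/- NPCs alone (1.18 ± 0.22, adjusted p = 0.00151). In p53+/+ NPCs it measured 103, 87.7 and 71.3 CPM in co-culture, against 57.9, 40.1 and 33.6 CPM alone (1.00 ± 0.21, adjusted p = 0.00296). No co-culture library overlapped the alone libraries of its genotype. Across genotypes it was lower in p53-/- co-cultures than in p53+/+ co-cultures (-0.80 ± 0.21, adjusted p = 0.0375) and lower in p53-/- NPCs alone than in p53+/+ NPCs alone (-0.98 ± 0.22, adjusted p = 0.0189). Its p53-/- co-cultures, at 43.4 to 61.1 CPM, thus overlapped p53+/+ NPCs alone, at 33.6 to 57.9 CPM. Ackr4, which overlaps 4.89% of its exon bases on the opposite strand and was chosen after its values were seen, averaged no more than 1.20 CPM in any group. Of its 100-base words, 10.5% also lie in the overlapping models Ackr4 and Gm28305.

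The differences with p53 loss were then followed within experiments. For Acadvl, Acadl, Acadm, Acadsb, Acad8 and Acad11 the log2 ratio of p53-/- to p53+/+ was below 0 in all 3 experiments in both cultures. Acadl is among them although it did not pass in any comparison. How many of all genes tested had such ratios was not counted, so this pattern of signs has no background here. The cultures share their experiments, so their ratios are not independent repeats. Acad11 had ratios of -0.76, -0.91 and -0.72 in co-culture and -1.16, -0.82 and -0.89 alone. Acadsb had -0.73, -0.64 and -0.40 in co-culture and -0.54 and -0.46 alone in the experiments 25_9 and 1_10, with a lower ratio still in experiment 17_9. The ratio of Acad11 was the lowest of the family in each experiment and culture. Acads, Acad9 and Acad10 each had ratios on both sides of 0 in 1 of the cultures.

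**Figure D4:**
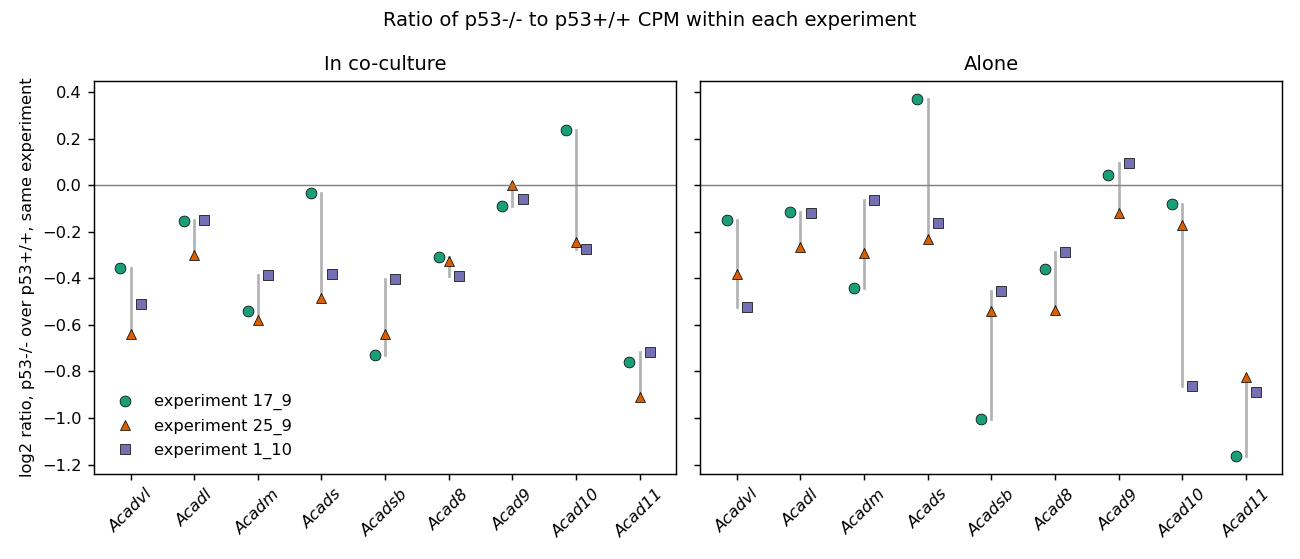
Log2 ratio of CPM in p53-/- over p53+/+ NPCs for each member within each of the 3 experiments, in co-culture (left) and alone (right). Grey lines join the lowest and highest experiment. Within every experiment Acad11 lies lowest, at -0.72 or less, while Acad9 lies between -0.12 and 0.09.

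With the experiment as a block (edgeR, all libraries), Acad11 had -0.80 ± 0.10 for p53 loss in co-culture (adjusted p = 0.000293). Alone it had -0.96 ± 0.10 (adjusted p = 8.01e-05). The fits that left out a library or experiment had no block, and in them the calls for p53 loss rested on few libraries. In co-culture, 0 members were called when the p53-/- library from 25_9 or 1_10 or the p53+/+ library from 17_9 or 25_9 was left out, and without experiment 25_9 or 1_10 as a whole. Leaving out these libraries, in the order named, left 329, 290, 244 and 282 of all genes called lower. Without experiment 1_10 the number was 306, against 677 with all libraries. These fits tested 13907 to 13953 genes. In NPCs alone, 0 members were called when the p53+/+ library from 17_9, the p53-/- library from 1_10 or all of experiment 25_9 was left out. Without that p53+/+ library 310 of all genes were called lower, and without that p53-/- library 452, against 587 with all libraries. Only 1 member was called when the p53-/- library from 17_9 or 25_9, the p53-/- co-culture from 25_9, or experiment 17_9 or 1_10 was left out. In the same order, 478, 548, 473, 273 and 302 of all genes were called lower. In a fit of only the 2 groups of NPCs alone, 0 members were called, and 306 of all genes were called lower. Without both alone libraries of experiment 17_9, which carried the mural and fibroblast markers, 0 members were called alone and 4 in co-culture. Of all genes, 321 and 1041 were then called lower. The fold changes for p53 loss that passed with all libraries held their sign. Over the 15 fits without 1 library or 1 experiment, that of Acad11 lay between -0.96 and -0.67 in co-culture and between -1.14 and -0.73 alone. Without experiment 25_9 the genes called lower among all genes were also few, 40 in co-culture and 107 alone.

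The dependence of the co-culture effect on p53 was tested as an interaction. No member passed with edgeR (0 also at an unadjusted p under 0.05), and of all genes 0.0364% passed. No member passed either with the experiment as a block, where 3 of all genes were called higher and 8 lower, with DESeq2, where 6 were higher and 14 lower, or with DESeq2 and the block, where 204 were higher and 72 lower. The interaction, the effect in p53-/- NPCs minus that in p53+/+ NPCs, was 0.18 ± 0.30 for Acad11, 0.10 ± 0.26 for Acadsb, -0.15 ± 0.19 for Acadvl and -0.23 ± 0.18 for Acadm. For Acadm this SE leaves room for a difference as large as its co-culture effect in p53-/- NPCs, so equal effects in the genotypes are not shown.

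Among relatives of the family outside the 9 members, Ivd and Acox3 rose in co-culture in both genotypes, as Acad12 did. Ivd, the isovaleryl-CoA dehydrogenase of leucine breakdown, rose by 0.69 ± 0.14 in p53-/- NPCs (adjusted p = 0.00308) and 0.64 ± 0.14 in p53+/+ NPCs (adjusted p = 0.00390). Gcdh, the glutaryl-CoA dehydrogenase of lysine breakdown, had 0.30 ± 0.14 and 0.26 ± 0.14 for co-culture in p53-/- and p53+/+ NPCs and did not pass in any comparison without the block. With the experiment as a block Gcdh passed for co-culture in p53-/- NPCs (adjusted p = 0.0409) and was lower without p53 in co-culture (-0.34 ± 0.11, adjusted p = 0.0474) and alone (-0.37 ± 0.11, adjusted p = 0.0416). Acox3, a peroxisomal acyl-CoA oxidase that passes electrons to oxygen, rose by 0.96 ± 0.14 in p53-/- NPCs (adjusted p = 0.000369) and 0.87 ± 0.14 in p53+/+ NPCs (adjusted p = 0.000462). It was lower in p53-/- than in p53+/+ NPCs alone (-0.56 ± 0.14, adjusted p = 0.0346), and with the block also in co-culture (-0.48 ± 0.14, adjusted p = 0.0273). With the block Acad12 was lower in p53-/- than in p53+/+ NPCs alone too (-0.79 ± 0.17, adjusted p = 0.00871). Acox2, with under 0.3 CPM in each library, was not tested.

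The partners that take the electrons moved less. Etfdh, the oxidoreductase that hands them to ubiquinone, rose in co-culture by 0.52 ± 0.13 in p53-/- NPCs (adjusted p = 0.00956) and 0.37 ± 0.13 in p53+/+ NPCs (adjusted p = 0.0442). Etfa and Etfb, the subunits of the electron transfer flavoprotein, did not pass in any comparison without the block, with 0.20 ± 0.14 and -0.05 ± 0.18 in p53-/- NPCs and 0.34 ± 0.14 and 0.18 ± 0.18 in p53+/+ NPCs for co-culture. With the block Etfa passed in p53+/+ NPCs (0.34 ± 0.11, adjusted p = 0.0208). None of the 3 passed for p53 loss.

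Of the 4 carnitine entry genes tested, 2 rose in co-culture in each genotype, and 3 were lower without p53 in co-culture and 1 alone. The list's median log2 fold changes for co-culture were 0.38 in p53-/- and 0.46 in p53+/+ NPCs, against -0.01 and 0.0005 over all genes. The shares of all genes called higher with co-culture were 18.8% and 21.2%. Those called lower without p53 were 4.93% in co-culture and 4.27% alone. Cpt1c, a carnitine palmitoyltransferase isoform of neural tissue, was lower in p53-/- NPCs by -1.57 ± 0.14 in co-culture (adjusted p = 3.89e-05) and -1.77 ± 0.14 alone (adjusted p = 1.18e-05). Cpt2, which remakes acyl-CoA inside the mitochondrion, rose in co-culture (0.72 ± 0.10 in p53-/- and 0.84 ± 0.10 in p53+/+ NPCs) and was lower without p53 in co-culture (-0.46 ± 0.10, adjusted p = 0.0158), and with the block also alone (-0.35 ± 0.10, adjusted p = 0.0291). Slc25a20, the carnitine-acylcarnitine carrier, was lower without p53 in co-culture too (-0.40 ± 0.10, adjusted p = 0.0332) and did not pass for co-culture against alone. The 2 genes that rose were thus Cpt1c and Cpt2. Cpt1a, named after its values were seen, was not among the genes called. It averaged 236 ± 20.4 CPM in p53-/- co-cultures against 229 ± 19.3 CPM in p53-/- NPCs alone. In p53+/+ NPCs it averaged 273 ± 8.59 CPM in co-culture against 270 ± 8.91 CPM alone (SD, n = 3 each).

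Of the 8 genes of later mitochondrial β-oxidation, 7 rose in co-culture in p53-/- NPCs and 6 in p53+/+ NPCs, with median log2 fold changes of 0.38 and 0.58. Over all genes, 18.8% and 21.2% rose, with medians of -0.01 and 0.0005. Decr1, the dienoyl-CoA reductase for unsaturated chains, rose by 0.49 ± 0.15 in p53-/- NPCs (adjusted p = 0.0211) and 0.94 ± 0.15 in p53+/+ NPCs (adjusted p = 0.000398), and was the 1 gene of this group lower without p53 in co-culture (-0.61 ± 0.15, adjusted p = 0.0241). Hadh rose by 0.39 ± 0.12 and 0.67 ± 0.12, and the isomerase Eci1 by 0.37 ± 0.12 and 0.66 ± 0.12. In NPCs alone the 1 gene lower without p53 was Hadhb (-0.45 ± 0.12, adjusted p = 0.0414), named after its values were seen. With the block all 8 genes rose in p53+/+ co-culture, as did 3604 of the 13745 genes tested. The block also called 3 lower without p53 in co-culture, against 1499 of all genes. Acaa2 and Eci2, also named after their values were seen, joined Decr1 there (-0.40 ± 0.10 and -0.38 ± 0.10).

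Branched-chain amino acid breakdown had 14 genes tested. With co-culture of p53-/- NPCs 7 rose and 1 fell (median log2 fold change 0.42), against 18.8% and 17% of all genes (median -0.01). With that of p53+/+ NPCs 8 rose (median 0.61), against 21.2% of all genes (median 0.0005). Aldh6a1, which acts in valine breakdown after Acad8, rose most, by 1.65 ± 0.16 in p53-/- NPCs (adjusted p = 1.63e-05) and 1.35 ± 0.16 in p53+/+ NPCs (adjusted p = 5.30e-05), and was lower without p53 alone (-0.62 ± 0.16, adjusted p = 0.0403). Hibadh, also of valine breakdown, rose by 0.57 ± 0.12 and 0.69 ± 0.12, and Dbt, a subunit of the branched-chain ketoacid dehydrogenase, by 0.55 ± 0.12 and 0.64 ± 0.12. Bcat1, the cytosolic transaminase, was the 1 gene of the list higher without p53, by 1.02 ± 0.27 in co-culture and 1.32 ± 0.27 alone, and Hsd17b10 was the 1 that fell in p53-/- co-culture (-0.40 ± 0.13), both named after their values were seen. With the block 1373 of the 13745 genes tested were higher and 1499 lower without p53 in co-culture, and 996 and 1282 alone. From the list 2 genes were then higher and 2 lower in co-culture, and 3 were higher and 1 lower alone. Those that joined were Aldh6a1 and Hibadh among the lower in co-culture, Acat1 among the higher in co-culture, and Bckdhb and Hsd17b10 among the higher alone, of which Acat1 and Bckdhb are also named after their values were seen.

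Of the 4 complex I assembly partners of Acad9 tested, only Ndufaf1 in p53+/+ co-culture passed (0.55 ± 0.16, adjusted p = 0.0169), where 21.2% of all genes rose. Among 7 receptors and coactivators linked to fatty acid oxidation, 2 rose in each genotype, with medians of 0.38 in p53-/- NPCs and 0.29 in p53+/+ NPCs. The shares over all genes were 18.8% and 21.2%, with medians of -0.01 and 0.0005. Ppara, the nuclear receptor PPARα, rose in co-culture by 1.07 ± 0.30 in p53-/- NPCs (adjusted p = 0.0143) and 0.79 ± 0.29 in p53+/+ NPCs (adjusted p = 0.0466), at 10.1 ± 0.414 CPM in p53-/- co-cultures against 4.83 ± 1.80 CPM in p53-/- NPCs alone. Ppargc1a, which encodes the coactivator PGC-1α, rose in p53-/- co-culture (0.90 ± 0.18, adjusted p = 0.00225), had 0.29 ± 0.18 in p53+/+ co-culture, and was lower in p53-/- than in p53+/+ NPCs alone (-0.71 ± 0.18, adjusted p = 0.0333). In co-culture its genotypes did not differ past the test, with 92.9 ± 15.6 CPM in p53-/- and 99.5 ± 14.8 CPM in p53+/+ NPCs. None of the 7 genes passed for the interaction with edgeR, though 1 had an unadjusted p under 0.05. A difference between the genotypes in the co-culture effect on Ppargc1a is therefore not shown. Ppard rose in p53+/+ co-culture (0.54 ± 0.15, adjusted p = 0.0112) and had 0.38 ± 0.15 in p53-/- co-culture (adjusted p = 0.0600), which passed with the block (0.39 ± 0.11, adjusted p = 0.0147). The block also called Pparg higher in p53+/+ co-culture (1.44 ± 0.43) and Esrra lower without p53 in co-culture (-0.41 ± 0.10), both named after their values were seen.

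The genes whose pattern over the 12 libraries was most like that of the 2 widest-ranging members were found by the root mean square difference of log2 CPM, each gene centred on its own mean. For Acad11, whose own SD over the libraries was 0.74, these were Parp3 (0.15), Cend1 (0.15), Arhgef33 (0.16), 1110032A03Rik (0.16) and Npr2 (0.17). For Acadsb, with an SD of 0.51, they were Tbcel (0.099), 4931406C07Rik (0.10), Ppt1 (0.11), Grk4 (0.13) and Man1a (0.13). None of the other 8 members was among the 5 genes nearest to either.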

How the data were processed

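Polyadenylated RNA of the 12 libraries was sequenced from stranded libraries. Per the labels and the submitters' processing notes, the authors aligned reads with TopHat2 2.0.11 to mm9 and assigned them to genes with HTSeq 0.6.1. What was deposited is 1 table of raw counts for 24108 genes, of which 18810 had a count. The strand setting of the counting is not given in the sources used here. Columns name the group and an experiment code, and the key of the table states that libraries with the same code are paired. The series describes 3 independent biological repeats. Replicates of a group differed by 13.2 to 62.5 times the counting variance, more than a repeated deposit of 1 library would give.

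Genes were kept by filterByExpr of edgeR 4.0.16 (13745 genes) and scaled by TMM (factors 0.961 to 1.04). The quasi-likelihood test of edgeR, with a term for each group, used all 12 libraries in R 4.3.3 with limma 3.58.1, and p-values were adjusted by Benjamini and Hochberg over all genes tested, with a threshold of 0.05. Fold changes are log2 ± SE, and values per library are CPM on TMM-scaled library sizes. The study's methods name DESeq2 without a design, and DESeq2 1.42.0 was run as an alternative, besides other scalings and filters, the experiment as a replicate block, only the groups compared, and fits without 1 library or experiment. The paired experiment codes were checked on the residuals: libraries of the same experiment correlated at 0.101 to 0.644 in all 18 pairs and those of different experiments at -0.654 to 0.295 in 36, so values with the block are given where they change a call of a member or a listed gene. The procedure was tested on simulated data.

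All 9 members are named in full. Relatives of the family and electron transfer genes are named, except 1 that is not reported here, and from each other list up to 3 called genes with the smallest adjusted p in any pairwise comparison. The members and the lists were chosen with earlier results of these data known. Likeness used log2 CPM with 0.5 CPM added. Coordinates, lengths and promoters are from GRCm38 annotation and were used for names, lengths and sequences only. Figures were drawn with matplotlib 3.10.9.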

Additional observations from a re-analysis of the deposited data

How the results depend on the processing

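The members called higher in co-culture numbered 2 to 5 in p53-/- NPCs and 0 to 5 in p53+/+ NPCs over the fits without 1 library or experiment, against 5 in each with all libraries, and those called lower with p53 loss numbered 0 to 4 in co-culture and 0 to 3 alone, against 3 in each. For p53 loss in co-culture 5 members were called with the replicate block, 5 with DESeq2 and 5 with DESeq2 and the replicate block, and for p53 loss alone 0 were called when only the groups compared were fitted. The pairing by experiment changed no other call of a member than those given with the results. The number for the interaction was 0 throughout.

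No fold change that passed its test had the opposite sign in any fit. Signs turned only in comparisons where the member did not pass. Acad9 had 0.042 with upper-quartile scaling and 0.019 with a minimum of 10 counts for co-culture in p53+/+ NPCs, 0.00098 with upper-quartile scaling for co-culture in p53-/- NPCs, and 0.0042 for the interaction with library size alone, where Acadl had 0.032. For p53 loss alone Acad9 had -0.00645 with the size factors of DESeq2, -0.034 with upper quartiles, -0.012 with library size alone, -0.0067 with DESeq2, -0.0094 with DESeq2 and the replicate block, -0.0065 with the minimum of 10 counts and -0.025 in the 2 groups alone. Without 1 library or experiment, ranges that crossed 0 were -0.27 to 0.025 for Acad10 with p53 loss in co-culture, -0.052 to 0.029 for Acad9 in p53+/+ co-culture, -0.10 to 0.070 for Acad9 and -0.21 to 0.098 for Acads with p53 loss alone, and -0.19 to 0.017 for Acads in p53-/- co-culture. For the interaction they were -0.071 to 0.34 for Acad11, -0.023 to 0.17 for Acad8, -0.14 to 0.045 for Acad9, -0.074 to 0.030 for Acadl and -0.17 to 0.25 for Acadsb.

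Among all genes, p53 loss in co-culture called 445 higher and 677 lower, against 1373 and 1499 with the replicate block and 745 higher with DESeq2. Alone it called 277 and 587, against 996 and 1282 with the block, 513 and 952 with DESeq2 and 43 and 306 in the 2 groups alone. The fit without both alone libraries of experiment 17_9 was chosen after seeing the data. Counting depth limits Acad10 most, with 59 to 228 counts per library.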
